A study of Homo sapiens with 10 samples.

Results

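In HCT116 cells, 992 protein-coding promoters carried RNA polymerase II (Pol II) and the 7SK protein Hexim1 but no peak of the kinase Cdk9. They were chosen by peak overlap: each promoter window reached 1 kb to either side of a gene's annotated 5′ end, and at least 1 bp of overlap with a peak counted as presence of that factor. Of 19222 coding promoters on chromosomes 1 to 22, 13809 had Pol II and 13615 had Pol II and Hexim1, so the promoters without Cdk9 made up 7.29% of the latter. The other 12623, with Pol II, Hexim1 and Cdk9, are the comparison set and are called Cdk9-bearing promoters. The 992 promoters rested on 845 distinct Pol II peaks, because 282 of them shared a Pol II peak with another of the 992, and 26 shared one with a Cdk9-bearing promoter.

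Pol II often pauses shortly after it starts transcription. Its release into the gene is driven by P-TEFb, a complex of Cdk9 and a cyclin T, and P-TEFb is held inactive when it is bound by Hexim1 on the 7SK RNA, which Larp7 protects. KAP1 (TRIM28) is a chromatin-bound protein best known as the corepressor of KRAB zinc finger proteins, and the series asks how it relates to the 7SK complex and to elongation at promoters.

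HCT116 is an established human colorectal carcinoma line, grown in serum-containing medium with no treatment named in the labels. The series has 10 ChIP-seq libraries, 1 for each antibody and an input, and 5 deposited peak lists were used here: total Pol II, Hexim1, Cdk9, Larp7 and KAP1. The remaining libraries (Ser-5P Pol II, input and 3 histone marks) are not analysed here. The labels give the cells as colonic endothelial, whereas the line is of epithelial origin. Of 20 colon epithelial marker promoters, 12 had Pol II, with a median Pol II fold of 77.7 among the 9 that had Cdk9 and 5.18 among the 3 that did not (CLDN7 119.8, EPCAM 5.18, CLDN4 3.97). Of 14 endothelial marker promoters, 7 had Pol II, all with Cdk9 and with a median fold of 8.68.

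On chromosomes 1 to 22 the lists held 91692 Pol II, 227631 Hexim1, 182444 Larp7, 118666 Cdk9 and 60660 KAP1 peaks. Read depth is unknown. Only 4.46% of the Cdk9 peaks reached a −log10 q of 5, against 14.1% to 20.0% of the KAP1, Larp7 and Hexim1 peaks and 75.4% of the Pol II peaks, so a promoter without a Cdk9 peak is not shown to lack Cdk9. With 1 library per antibody no difference could be set against replicate spread. The intervals below are 95% intervals for counting error only, and they treat promoters that share a peak as separate.

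The stretches below run from 120 bases before to 30 bases from the annotated 5′ end on, and their last 30 bases are the first transcribed bases of the annotated gene. The first 6 are the promoters of highest Pol II fold whose Pol II summit lay within 250 bp of the 5′ end, one per peak. The last 4 were added after their values were seen, because they come from the gene families described below and show motifs whose shares are given at the end. Sequences are from GRCh37 (hg19), 5′ to 3′ on the strand of the gene, and capitals mark exact matches, on either strand, to the motifs searched.
KRBA2, chr17:8279993-8280142, minus strand: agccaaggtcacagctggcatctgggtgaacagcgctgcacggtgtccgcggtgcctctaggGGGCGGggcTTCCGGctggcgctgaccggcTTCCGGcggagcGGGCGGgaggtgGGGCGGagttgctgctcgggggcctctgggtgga
RBM34, chr1:235324569-235324718, minus strand: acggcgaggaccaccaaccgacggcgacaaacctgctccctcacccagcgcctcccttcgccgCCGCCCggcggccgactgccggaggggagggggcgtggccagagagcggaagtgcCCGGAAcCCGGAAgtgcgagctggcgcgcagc
UBL7, chr15:74753494-74753643, minus strand: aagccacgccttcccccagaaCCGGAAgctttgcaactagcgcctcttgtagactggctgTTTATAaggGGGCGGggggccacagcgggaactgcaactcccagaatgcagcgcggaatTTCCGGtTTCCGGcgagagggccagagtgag
IPO9, chr1:201798157-201798306, plus strand: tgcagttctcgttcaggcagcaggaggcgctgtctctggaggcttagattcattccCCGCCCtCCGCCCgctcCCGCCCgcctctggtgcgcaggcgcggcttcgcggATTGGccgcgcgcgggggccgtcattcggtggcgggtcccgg
ATP5F1B, chr12:57039739-57039888, minus strand: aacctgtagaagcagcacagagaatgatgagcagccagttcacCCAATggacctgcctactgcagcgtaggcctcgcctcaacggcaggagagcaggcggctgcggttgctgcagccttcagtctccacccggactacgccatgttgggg
FAM161B, chr14:74417088-74417237, minus strand: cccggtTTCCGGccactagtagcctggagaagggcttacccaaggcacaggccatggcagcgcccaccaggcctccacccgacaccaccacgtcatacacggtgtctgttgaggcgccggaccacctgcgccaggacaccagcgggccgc
SDHC, chr1:161284051-161284200, plus strand: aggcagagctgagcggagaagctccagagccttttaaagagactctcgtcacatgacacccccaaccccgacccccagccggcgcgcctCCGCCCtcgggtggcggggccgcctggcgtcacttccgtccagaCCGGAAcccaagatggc
MRPL42, chr12:93861170-93861319, plus strand: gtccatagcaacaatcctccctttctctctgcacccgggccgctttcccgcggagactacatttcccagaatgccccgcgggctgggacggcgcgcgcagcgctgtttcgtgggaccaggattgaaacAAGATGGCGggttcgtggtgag
RPL22L1, chr3:170587968-170588117, minus strand: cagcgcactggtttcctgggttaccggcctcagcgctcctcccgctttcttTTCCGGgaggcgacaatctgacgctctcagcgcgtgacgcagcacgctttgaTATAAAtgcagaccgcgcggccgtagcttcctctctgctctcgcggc
H1-2, chr6:26056669-26056818, minus strand: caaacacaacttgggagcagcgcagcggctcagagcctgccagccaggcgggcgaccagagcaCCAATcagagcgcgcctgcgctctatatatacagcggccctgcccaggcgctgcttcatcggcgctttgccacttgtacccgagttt

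RBM34 encodes an RNA-binding protein, and its stretch held 2 copies of CCGGAA, the core of sites bound by ETS factors, that start at bases -2 and 6 counted from the 5′ end with no base 0. UBL7, a ubiquitin-like protein gene, held CCGGAA near the same place on the other strand, starting at bases -1 and 7. MRPL42, a mitochondrial ribosomal protein gene, held AAGATGGCG, a form of the YY1 site, at base 9. RPL22L1, a ribosomal protein gene, held TATAAA at base -17, and the linker histone gene H1-2 held CCAAT, the core bound by NF-Y, at base -57. ATP5F1B, the catalytic beta subunit of ATP synthase, showed 1 CCAAT and no other motif searched.

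The values that chose the promoters are given as a description. The fold, which is the enrichment over background that the authors' peak caller assigned, had a median of 13.9 for Pol II at the 992 promoters, with quartiles of 7.52 and 27.3 and a range of 2.59 to 125.5. At Cdk9-bearing promoters the median was 43.6. Hexim1 fold had a median of 4.63 and a range of 2.43 to 16.3, against a median of 7.44 with Cdk9. Their peaks were also narrower, with medians of 405 bp for Pol II and 623 bp for Hexim1 against 834 bp and 1540 bp. The share of Pol II and Hexim1 promoters without Cdk9 was 12.9% and 15.5% in the lowest and second quintiles of Pol II fold, then 4.99%, 2.06% and 0.992% in the next 3. By Hexim1 fold it went from 26.6% in the lowest quintile to 1.102% in the highest. Promoters without a Cdk9 peak were therefore concentrated where the other peaks were weak.

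The rule has 2 edges, one of Cdk9 peak strength and one of distance. By strength, the lowest Cdk9 folds at Cdk9-bearing promoters were 2.67 at RPF2, 2.69 at C11orf16 and 2.69 at FRRS1, where the median of that set was 4.66. By distance, the nearest Cdk9 peak to any of the 992 windows lay 1 bp beyond that of the unnamed coding gene ENSG00000288564. It lay 2 bp beyond that of BMAL1, a core circadian clock factor, and 2 bp beyond that of PPP1R3A, a regulatory subunit of protein phosphatase 1.

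The 12 promoters of highest Pol II fold fell into 2 kinds by where the Pol II summit lay. At SRC, the tyrosine kinase gene, Pol II fold was 125.5, the summit lay 1511 bp downstream of the annotated 5′ end, and a Cdk9 peak began 68 bp beyond the window. CLDN7, a tight junction claudin, had a fold of 119.8, a summit at 1538 bp and Cdk9 114 bp beyond the window. SLC16A1, a lactate and pyruvate transporter, had a fold of 118.2, a summit at 1436 bp and Cdk9 168 bp beyond it. APLP2 and SINHCAF, with folds of 116.5 and 103.2, were alike, with summits at 1843 and 2634 bp. For these 5 genes the annotated 5′ end is not where Pol II was highest.

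At the other 7 the summit lay within 500 bp of the 5′ end. KRBA2 had a Pol II fold of 122.0 with the summit at -18 bp, RBM34 108.0 at -47 bp, UBL7 101.2 at 86 bp, IPO9, a nuclear import receptor, 100.3 at 52 bp, and ATP5F1B 99.8 at 53 bp. KDM4A, a histone demethylase, and the overlapping record ENSG00000284989 shared 1 peak of fold 97.5. The nearest Cdk9 peak was 522 bp beyond the window at KRBA2, 532 bp at RBM34, 2066 bp at IPO9, 4397 bp at ATP5F1B, 4899 bp at UBL7 and 10242 bp at KDM4A.

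Over all 992 promoters, the Pol II summit was within 250 bp of the 5′ end at 626, or 63.1% (60.0% to 66.1%), against 59.9% at Cdk9-bearing promoters. It was over 1 kb away at 58, or 5.85%, against 5.32%. A Cdk9 peak lay within 2 kb of the 5′ end at 244 (24.6%), within 5 kb at 511 (51.5%), within 10 kb at 710 (71.6%) and within 50 kb at 951 (95.9%). Where Cdk9 lay 1 kb or less beyond the window, the Pol II summit was over 1 kb away at 43 of 244 promoters (17.6%). Where it lay more than 4 kb beyond, this held for 5 of 481 (1.04%). At 328 genes (33.1%) Cdk9 overlapped the 1 kb window of another annotated transcript start of the same gene. The 481 promoters with no Cdk9 within 5 kb are used below as the stricter set. Gene list shares under that rule leave the rest of the 992 out of both counts, so their denominators are smaller.

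**Figure D1:**
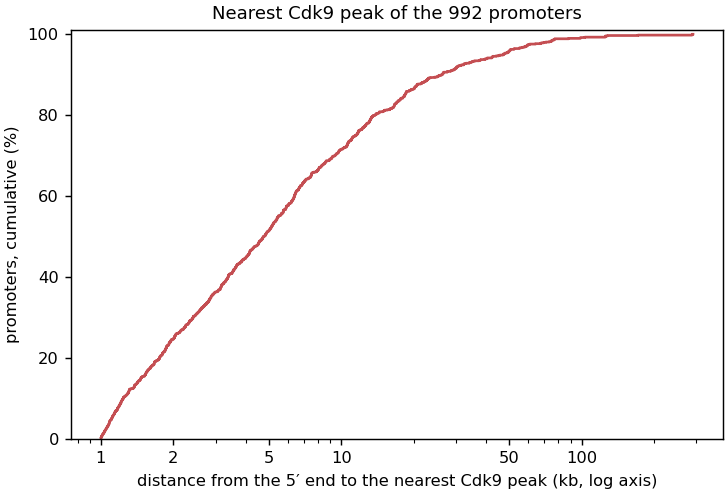
Distance from the annotated 5′ end to the nearest Cdk9 peak (kb, log axis) against the cumulative percent of the 992 promoters. The curve starts at 1 kb because the window has no Cdk9, passes 51.5% at 5 kb and reaches 95.9% at 50 kb.

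Larp7, which shares the 7SK particle with Hexim1, had a peak at 660 of the 992 promoters, or 66.5% (63.5% to 69.5%). At Cdk9-bearing promoters the share was 99.0%, over all Pol II and Hexim1 promoters 96.6%, and over all coding promoters 76.4%. The difference from the Cdk9-bearing promoters was -32.4 percentage points (-35.4 to -29.5). KAP1 had a peak at 310 of them, or 31.3% (28.4% to 34.2%), against 93.9% with Cdk9, 89.3% over all Pol II and Hexim1 promoters and 66.2% over all coding promoters. The difference was -62.6 points (-65.4 to -59.6). Both factors were thus found less often where Cdk9 had no peak, and the gap was wider for KAP1 in lists of unequal length. With the 20000 strongest peaks of each list the differences were -30.2 points (-32.3 to -28.1) for Larp7 and -32.5 points (-34.7 to -30.4) for KAP1.

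By combination, 266 promoters (26.8%) had Larp7 and KAP1, 394 (39.7%) had Larp7 without KAP1, 44 (4.44%) had KAP1 without Larp7 and 288 (29.03%) had neither. At Cdk9-bearing promoters the same shares were 93.6%, 5.32%, 0.230% and 0.824%. Larp7 without KAP1 was the commonest state of the 992, in lists of unequal length. With the 20000 strongest peaks of each list, 2551 promoters had no Cdk9. Larp7 was at 26.1% of them and KAP1 at 49.3%, so the order of these factors turned with list length. The shares at Cdk9-bearing promoters of that setting were 56.3% and 81.8%. Among the 992, KAP1 was at 40.3% (36.5% to 44.2%) of those with Larp7 and at 13.3% (9.80% to 17.4%) of those without. Where present, the peaks were lower than at Cdk9-bearing promoters, with a median Larp7 fold of 3.596 against 4.96 and a median KAP1 fold of 3.94 against 4.90.

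**Figure D2:**
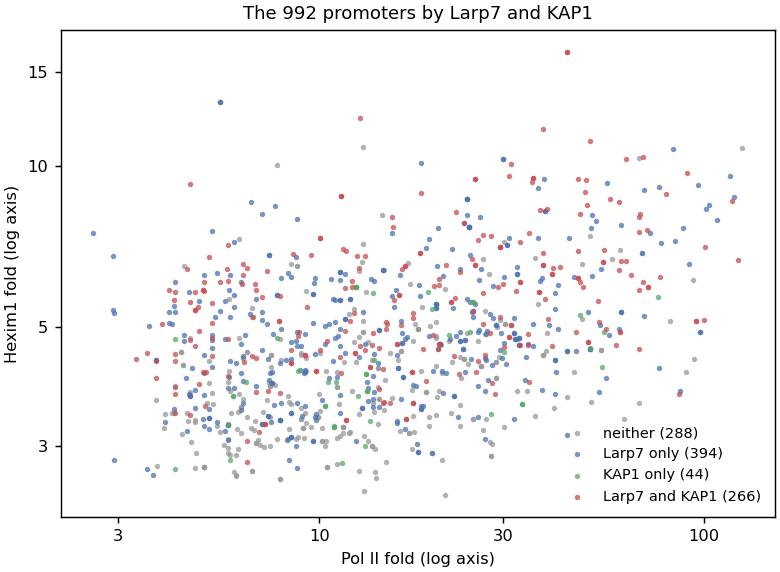
Pol II fold against Hexim1 fold (both log axes) of the 992 promoters, 1 point each, coloured by whether Larp7 and KAP1 had a peak. The 288 promoters with neither factor include SRC, at the far right, with a Hexim1 fold of 10.8.

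Since Pol II and Hexim1 peaks were weaker at these promoters, the shares were also compared at like fold. In the lowest quintile of Pol II fold, KAP1 was at 24.9% of 350 promoters without Cdk9 and at 91.2% of those with it. In the third quintile it was at 41.2% of 136 and at 93.7%. In the lowest quintile of Hexim1 fold, KAP1 was at 24.6% against 77.7% and Larp7 at 58.8% against 95.1%. Averaged within deciles of Pol II fold the differences were -59.4 points for KAP1 and -31.8 for Larp7, and within deciles of Hexim1 fold -42.7 and -27.4. The gap was smaller at like Hexim1 fold but did not close. What the weakness of the Cdk9 list contributes to it was not tested.

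**Figure D3:**
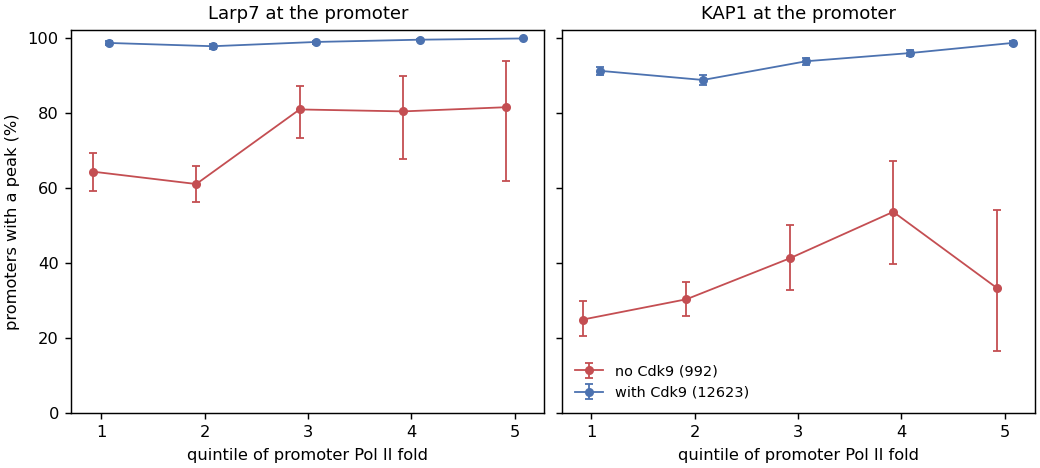
Percent of promoters with a Larp7 peak (left) and a KAP1 peak (right) in each quintile of promoter Pol II fold, for the 992 promoters without Cdk9 and the 12623 with it; bars are exact 95% intervals. In each quintile the promoters without Cdk9 lie below those with it, for KAP1 between 24.9% and 53.6% against at least 88.7%.

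KAP1 was found about equally often at each distance from Cdk9. It was at 31.1% of promoters with Cdk9 up to 1 kb beyond the window, at 34.5% with Cdk9 over 1 kb and up to 4 kb beyond it, and at 29.5% with none within 5 kb of the 5′ end. The Larp7 shares were 70.5%, 71.5% and 61.7%, lowest in the promoters farthest from Cdk9. At the 345 promoters with no Cdk9 within 5 kb and a Pol II summit within 250 bp, Larp7 was at 61.4% (56.1% to 66.6%) and KAP1 at 28.7% (24.0% to 33.8%).

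The highest Hexim1 fold, 16.3, was at the peak shared by LZIC and NMNAT1, which makes nuclear NAD. They had Larp7 at 3.95 and KAP1 at 3.56, and the nearest Cdk9 peak was more than 5 kb away. ENPP3, an ectonucleotidase, and MED23, a Mediator subunit, shared a Hexim1 peak of fold 13.2 beside a weak Pol II peak of fold 5.50, with Larp7 at 3.44, no KAP1, and Cdk9 more than 100 kb away. PDZD9 followed at 12.3, BMAL1 at 11.8, SNX15, a sorting nexin, at 11.1 and NCOR1, a nuclear receptor corepressor, at 10.9. Of these 8 genes, NCOR1 alone had neither Larp7 nor KAP1. A high Hexim1 fold thus occurred with both high and low Pol II fold.

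The highest KAP1 fold among the 992 was 7.02, at LMBR1L. The divergent pair CIR1 and SCRN3 followed at 6.74, then COQ6, an enzyme of coenzyme Q synthesis, with its neighbour FAM161B at 6.50, and SNRPB, a core protein of spliceosomal snRNPs, at 6.37. Pol II fold at these 6 ranged from 11.4 at CIR1 to 94.9 at COQ6. All had Larp7.

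Some promoters with very high Pol II had neither Larp7 nor KAP1. After SRC came H1-2, with a Pol II fold of 94.0 and a Hexim1 fold of 4.36, SLC18B1, a vesicular polyamine transporter, at 93.2, and RPS13, a protein of the small ribosomal subunit, at 89.6. ARRDC3, an arrestin-like protein, followed at 81.3 and EFCAB11 at 69.0. The Pol II summit lay at 25 bp in H1-2, 92 bp in RPS13 and -15 bp in ARRDC3, but 1511 bp away in SRC and 1257 bp upstream in SLC18B1 and in EFCAB11. Hence 3 of these 6 had Pol II centred on the annotated 5′ end and 3 had it outside the window.

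The gene families were read as the share of each list's Pol II and Hexim1 promoters that lacked Cdk9, beside the 7.29% over all. The lists were chosen with earlier results of these data known. Mitochondrial, histone and ribosomal lists stood above that share: 17 of 80 oxidative phosphorylation promoters (21.3%, 12.9% to 31.8%), 14 of 73 mitochondrial ribosomal protein promoters (19.2%, 10.9% to 30.1%), 9 of 41 replication-dependent histone promoters (21.95%, 10.6% to 37.6%) and 11 of 77 cytosolic ribosomal protein promoters (14.3%, 7.35% to 24.1%). With peaks of −log10 q of at least 5 only, the shares of the first 2 lists were 76.5% and 76.3% beside 76.3% over all, so their gap from the rest was absent there, and the direction turned for the histone list (60.0%) and the cytosolic ribosomal list (64.1%). With the 20000 strongest peaks of each list the shares of the 4 lists, in the same order, were 35.8%, 45.7%, 33.3% and 28.6% beside 28.1%.

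**Figure D4:**
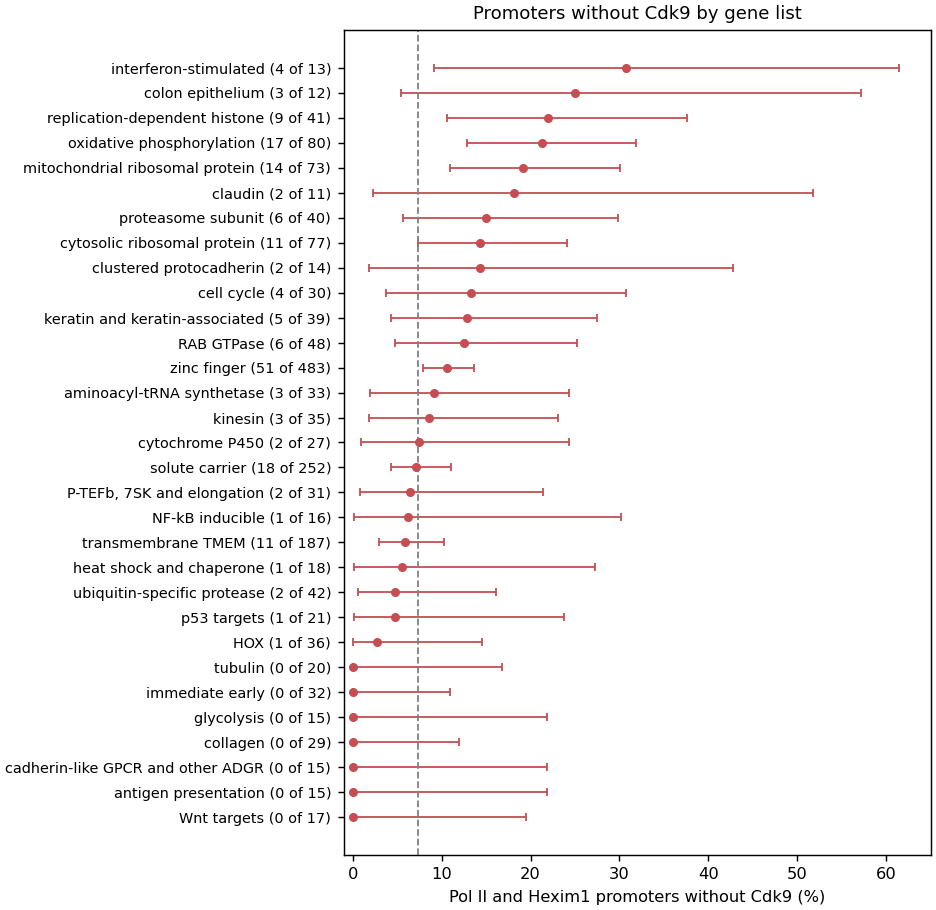
Percent of the Pol II and Hexim1 promoters of each gene list that had no Cdk9 peak, for lists with at least 10 such promoters; bars are exact 95% intervals and the dashed line is the 7.29% over all 13615 promoters. The intervals of 6 lists lie above the line (oxidative phosphorylation, mitochondrial and cytosolic ribosomal, histone, zinc finger, interferon-stimulated), and the others span it.

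The oxidative phosphorylation genes spanned the respiratory complexes. Complex I gave NDUFS5, NDUFB3, NDUFB4, NDUFB5, NDUFB6 and NDUFB8 and the assembly factor NDUFAF7. Succinate dehydrogenase gave SDHB and SDHC, complex III gave UQCRC1 and UQCR10, and cytochrome c oxidase gave COX6A1, COX6B1 and COX7C. ATP synthase gave ATP5F1A, ATP5F1B and ATP5PO. Their Pol II fold ran from 4.99 at NDUFB3 to 99.8 at ATP5F1B, with a median of 15.9 against 47.6 in the Cdk9-bearing genes of the list. SDHC had a Pol II fold of 88.3 with the summit at -6 bp, a Hexim1 fold of 7.67, Larp7 at 4.09, no KAP1 and the nearest Cdk9 7276 bp beyond the window. Larp7 was at 12 of the 17, KAP1 at 7 and neither at 3. The Pol II summit was within 250 bp at 14 of them, and 10 had no Cdk9 within 5 kb. UQCRC1 was an exception, with the summit at 1368 bp and Cdk9 76 bp beyond the window.

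Of the 14 mitochondrial ribosomal protein genes, MRPS15 had the highest Pol II fold, 55.03, and MRPS33, MRPL32 and MRPS9 lay between 25.9 and 27.4. Larp7 was at 5 and KAP1 at 4 of the 14, and neither was at 7, among them MRPL32 and MRPL42. In 12 of them no Cdk9 peak lay within 5 kb. MRPL32 shared its Pol II peak with the proteasome gene PSMA2, and MRPL47 shared one with NDUFB5, so these are single peaks counted in 2 lists. With no Cdk9 within 5 kb as the rule, the mitochondrial ribosomal share was 16.9% and the oxidative phosphorylation share 13.7%, beside 3.67% over all.

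The cytosolic ribosomal protein genes without Cdk9 were led by RPS13 at a Pol II fold of 89.6, RPS26 at 61.9, RPL9 at 49.9 and RPL22L1 at 37.9. Their median of 29.3 compares with 88.4 in the 66 ribosomal genes with Cdk9. Neither Larp7 nor KAP1 was found at 6 of the 11, and KAP1 was found at 2. RPL37 and RPL32 had Cdk9 143 and 154 bp beyond the window, and with no Cdk9 within 5 kb the share was 5.71% (4 of 70), beside 3.67% over all. Ribosomal protein genes have many processed pseudogenes, and the treatment of reads that match more than 1 place is not given in the sources used here.

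Of the 9 histone genes, 8 were on chromosome 6. H1-2 and the core histone gene H3C2 had Pol II folds of 94.0 and 50.8 with neither Larp7 nor KAP1. H2AC13 and H2BC13 shared 1 Pol II peak of fold 31.5, with Larp7 and KAP1 at 4.16 and 3.96. H3C2 had Cdk9 239 bp beyond the window and H1-2 10762 bp beyond it. With no Cdk9 within 5 kb, 2 of 34 remained (5.88%, beside 3.67% over all), so most of these promoters had Cdk9 close by. Histone genes are clustered, and some resemble each other in sequence. The treatment of reads that match more than 1 place is not given in the sources used here, and any effect of it was not tested.

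Zinc finger genes, whose KRAB members recruit KAP1, gave 51 of 483 promoters (10.6%, 7.96% to 13.7%). The share was 78.0% beside 76.3% over all with peaks of −log10 q of at least 5, and 30.0% beside 28.1% with the 20000 strongest peaks of each list. KAP1 was at 18 of the 51 and Larp7 at 36. ZNF410 had a Pol II fold of 48.4 with KAP1 at 3.17, the pair ZNF619 and ZNF620 shared a Pol II peak of 46.9 with KAP1 at 3.75, and ZNF131 had 31.1 with KAP1 at 6.27. Their KAP1 share was thus near that of the 992 promoters. Proteasome genes gave 6 of 40 (15%, 5.71% to 29.8%), led by PSMC4 at a Pol II fold of 50.5. With no Cdk9 within 5 kb they gave 1 of 35 (2.86%), beside 3.67% over all.

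Among inducible genes, the interferon-stimulated list gave 4 of 13 (30.8%, 9.09% to 61.4%): BST2, a viral restriction factor, MX1, an antiviral GTPase, STAT2, a transducer of interferon signalling, and OASL. Their Pol II folds were 18.0, 16.3, 10.4 and 7.37. All 4 had Larp7 and MX1 had KAP1. When the start of any transcript counted, for Pol II and Hexim1 as well as Cdk9, the share was 1 of 20 (5.0%), beside 5.07% over all. The share thus depended on which transcript starts counted. None of the 32 immediate early promoters lacked Cdk9, which allows a share of up to 9.38% when 3 promoters are taken as the limit of a count of 0, and up to 10.9% by the exact interval. Their median Pol II fold was 118.7. In the 20000 strongest peaks of each list, 0 of 32 lacked Cdk9, beside 28.1% over all. At −log10 q of at least 5 the count was 12 of 32 (37.5%), beside 76.3% over all. Peak middles gave 2 of 25 (8.0%), beside 8.44%. By the main rule the counts were also 0 of 15 in glycolysis, 0 of 17 in Wnt targets, 0 of 15 in antigen presentation, 0 of 20 in tubulins and 0 of 29 in collagens. The exact intervals reach from 11.9% in collagens to 21.8% in glycolysis and antigen presentation. By the main rule, these counts of 0 cannot be told apart from the 7.29% at the size of the lists.

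HSPA1B, an inducible HSP70 gene with a near-identical copy beside it, was the single heat shock gene of 18, with a Pol II fold of 67.6. TIGAR was the single p53 target of 21 and BIRC3 the single NF-kB inducible gene of 16. Of 31 elongation genes, CCNT1, the cyclin T1 partner of Cdk9, had a Pol II fold of 30.5 with Larp7 at 3.23, and ELL3, an elongation factor, 23.8 with Larp7 at 3.31. The cell cycle list gave 4 of 30, which were PLK1, CCNB2, AURKA and BUB1B with Pol II folds of 72.4, 46.9, 33.0 and 10.4. In PLK1, a mitotic kinase, the summit lay at 1337 bp with Cdk9 165 bp beyond the window. Solute carriers gave 18 of 252 (7.14%) and TMEM genes 11 of 187 (5.88%), both near the share over all. The marker lists of endothelium, fibroblast, blood and other tissues gave none of 7, 8, 3 and 6, and the colon epithelium list gave CLDN7, EPCAM and CLDN4 of 12. The exact intervals reach 41.0%, 36.9%, 70.8% and 45.9% for the first 4 and run from 5.49% to 57.2% for colon epithelium. All include the 7.29% over all, so they show no contrast between tissues. Those of the heat shock, p53, NF-kB, elongation and cell cycle lists also include it, with upper limits from 21.4% to 30.7%.

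By chromosome the share without Cdk9 ran from 2.48% (12 of 484) on chromosome 8 to 10.8% (79 of 730) on chromosome 12, with 10.5% (144 of 1370) on chromosome 1. Copy number of the line was not measured here. Another coding gene on the opposite strand had its 5′ end within 1 kb at 252 of the 992 (25.4%, 22.7% to 28.2%), against 17.3% at Cdk9-bearing promoters and 13.5% over all. LZIC with NMNAT1, CIR1 with SCRN3 and PSMA2 with MRPL32 are such pairs.

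The genes were somewhat shorter than those with Cdk9. Their median annotated length was 26452 bp (24077 to 29226), against 31486 bp with Cdk9 and 27567 bp over all coding genes. The difference lay among long genes: 129 (13.0%, 11.0% to 15.3%) were at least 100 kb long against 20.0%, and 50 (5.04%) at least 200 kb against 8.10%, while 21.7% and 21.6% were under 10 kb. By quintile of length the share without Cdk9 was 7.42%, 8.74%, 8.15%, 7.09% and 5.03%. In the 481 promoters with no Cdk9 within 5 kb the median was 33636 bp, so the shorter median did not hold in the stricter set.

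Body Pol II was scored in genes no shorter than 4 kb, as any Pol II peak that overlapped the gene more than 2 kb downstream of its start. A promoter's own Pol II peak also counted where it reached that far, as at SRC and CLDN7. The score is thus not independent of the promoter peaks, which were wider at Cdk9-bearing promoters (median 834 bp against 405 bp). Of 912 genes of that length without promoter Cdk9, 590 had body Pol II, or 64.7% (61.5% to 67.8%). The share was 70.3% with Cdk9 and 69.9% over all genes with a Pol II and Hexim1 promoter. The difference of -5.61 points (-8.87 to -2.46) became -0.437 within deciles of promoter Pol II fold and stayed at -5.19 within deciles of gene length. Compared at like promoter Pol II fold, the sets thus differed by under 1 point, a value that has no interval here. The difference was -1.39 points (-4.58 to 1.67) with peaks reduced to their middles and -16.6 points (-20.4 to -12.9) when the start of any transcript counted. In the latter setting the Cdk9 rule covered transcript starts that can lie in the body, so it was not independent of body Pol II. When only Pol II peaks over 1 kb from any transcript start counted, 52.0% of the 912 had one, against 58.9% with Cdk9. That difference, which leaves out the promoter peaks, was -6.92 points (-10.3 to -3.57). Of all body peaks, at least 3 were found in 31.1% against 41.3%. Where there was any, the median density was 0.915 against 1.13 peaks per 10 kb.

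Promoter KAP1 and Larp7 went with little difference in body Pol II among these genes. It was found in 66.3% (60.4% to 71.8%) of those with promoter KAP1 and 64.0% (60.1% to 67.7%) of those without, and in 65.3% with and 63.5% without promoter Larp7. Cdk9 itself had a peak in the body of 688 of the 912 (75.4%, 72.5% to 78.2%), against 82.5% with promoter Cdk9 and 77.8% over all coding genes of that length. It was in 526 of 590 bodies with Pol II (89.2%) and in 162 of 322 without (50.3%). Body KAP1 was at 49.3% against 62.6% and 58.2%, Larp7 at 87.0% against 91.0% and 86.5%, and Hexim1 at 90.5% against 94.1% and 89.8%, in the same order. The body shares of Cdk9, Larp7 and Hexim1 were thus near those over all genes.

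**Figure D5:**
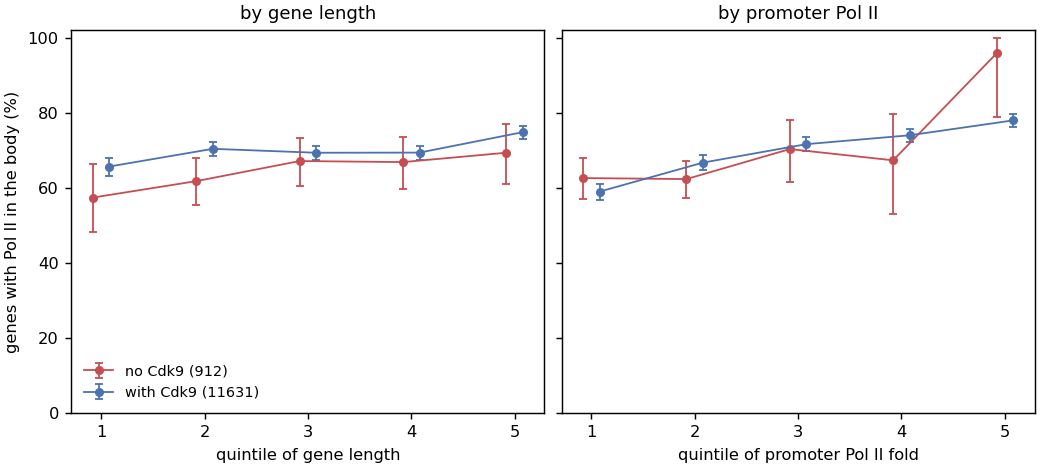
Percent of genes (4 kb or longer) that held body Pol II, by quintile of gene length (left) and of promoter Pol II fold (right), for 912 genes without and 11631 with promoter Cdk9; bars are exact 95% intervals. By length the genes without Cdk9 lie between 57.4% and 69.3%, below those with it in each quintile (65.7% to 74.8%). By Pol II fold they lie above in the lowest and highest quintiles and below in the others, and the intervals of both sets overlap in every quintile.

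The longest genes with body Pol II were STPG2, of 959384 bp, with 3 Pol II and 14 Cdk9 body peaks, SNTG1, a syntrophin gene of 886904 bp, with 3 and 13, and SOX6, a transcription factor gene of 773144 bp, with 3 and 14. BCAS3 had 7 Pol II and 36 Cdk9 body peaks over 715386 bp, and DCDC1 had 1 and 2. The longest without body Pol II was SLC25A21, a mitochondrial oxodicarboxylate carrier gene of 494686 bp. It had a promoter Pol II fold of 71.1, Larp7 and KAP1 at the promoter, and 6 Cdk9 but 0 Pol II peaks in the body. BRINP3, WDR7, PLCH1 and UMAD1 followed with promoter Pol II folds of 6.41, 12.4, 20.4 and 38.0, each with 2 to 6 Cdk9 body peaks. SRC had 24 Pol II and 13 Cdk9 peaks in its body, and the 24 include its promoter peak. Long genes therefore ranged from no body peak to several at like promoter fold.

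The promoters were lower in GC than either comparison set, and their CpG ratio lay between the sets. In the 300 bases from 250 before the 5′ end, median GC was 57.3%, against 65.3% with Cdk9 and 60.3% over all, and the median ratio of observed to expected CpG was 0.737 against 0.812 and 0.700. GGGCGG, the GC box bound by Sp factors, was in 49.8% of the 992 against 69.4% with Cdk9 and 52.4% over all. The motifs were matched exactly on both strands, and none of the 10 contains another.

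CCGGAA was in 31.4% (28.5% to 34.3%) of the 992 promoters, against 24.1% with Cdk9 and 19.5% over all. AAGATGGCG was in 4.64% (3.41% to 6.14%), against 2.29% and 1.89%. CCAAT was in 43.5% (40.4% to 46.7%), against 33.7% and 35.5%. Of the motifs searched, only CCGGAA and AAGATGGCG were compared at like GC content and with other peak lists, so the CCAAT difference was not. Within deciles of GC content the difference from Cdk9-bearing promoters was 8.23 points for CCGGAA and 2.42 points for AAGATGGCG, values that have no interval here. With peaks of −log10 q of at least 5 only, the differences were -0.847 points (-2.67 to 0.926) and -0.297 points (-1.001 to 0.315), so neither was resolved there. With the 20000 strongest peaks of each list they were 3.21 points (1.17 to 5.28) and 0.151 points (-0.566 to 0.961). In the stricter set, with no Cdk9 within 5 kb, they were larger, at 14.17 points (9.87 to 18.65) and 3.74 points (1.92 to 6.247).

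TATAAA was in 8.57% against 6.08% with Cdk9 and 10.9% over all, and TGACTCA, the AP-1 site, in 4.54% against 2.54% and 4.00%. TGACGTCA, the CREB site, was in 3.53% against 2.88% and 2.28%, and GCGCATGCG, the NRF1 site, in 4.23% against 3.10% and 2.35%. CACGTG, the E-box, was in 8.27% against 9.79% and 8.19%, and TCTCGCGAG in 1.01% against 1.13% and 0.838%. By family, TATAAA was in 6 and CCAAT in 7 of the 9 histone promoters, CCGGAA in 9 of the 17 oxidative phosphorylation and 7 of the 11 cytosolic ribosomal promoters, and AAGATGGCG in 4 of the 14 mitochondrial ribosomal promoters. A match describes these letters and is not shown to be a bound site.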

How the data were processed

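Chromatin of HCT116 cells was immunoprecipitated with 1 library per antibody. Alignment used Bowtie 1.1 and hg19, and peak calling used MACS2, per the submitters' processing notes. Not given in the sources used here: the MACS2 version, control, duplicate handling, settings and depth. The deposited Pol II list is in the narrow and the others are in the broad layout. Column 7 is the authors' fold, a ratio of a peak over background, used within its own list. Columns 8 and 9 are the deposited −log10 p and q, and column 10 of the Pol II list is the deposited summit offset. No list was rescaled and no p-value was computed.

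Genes were those of GENCODE release 44 on GRCh37, with 1 record per symbol (the longest), which left 19222 of 19229 records. A promoter's fold is that of its highest overlapping peak. Shares have exact Clopper-Pearson 95% intervals and differences have Newcombe intervals, which cover counting error only. Stratified differences were averaged over deciles, weighted by the promoters without Cdk9. The scripts used Python 3.11.15, numpy 2.4.6, pandas 2.3.3, scipy 1.17.1 and matplotlib 3.10.9, and were tested on simulated data.

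The promoters, the 37 gene lists and the tests were chosen with earlier results of these data known. Named genes were the 12 of highest Pol II fold, the 8 of highest Hexim1 and 6 of highest KAP1 fold, the 6 of highest Pol II fold with neither Larp7 nor KAP1, the 4 of highest Pol II fold of each list, and the 5 longest with and without body Pol II. Also named were the 3 whose nearest Cdk9 peak lay closest to the window, and the 3 Cdk9-bearing promoters of lowest Cdk9 fold. Other members of lists were named to complete them. Alternatives were stricter or equally long lists, other windows, any transcript start, peak middles, 1 promoter per Pol II peak, no Cdk9 within 5 kb, and deciles of fold, length or GC. A further one, for the gene body only, kept Pol II peaks over 1 kb from any transcript start.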

Additional observations from a re-analysis of the deposited data

How the results depend on the processing

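Over all alternatives the Larp7, KAP1 and gene body differences from Cdk9-bearing promoters stayed negative. With peaks of −log10 q of at least 5 there were 9453 promoters without Cdk9, 515 of them among the 992, since few Cdk9 peaks pass. The differences were then -22.1 points for Larp7 and -39.1 for KAP1, median length was 30680 bp, and the CCGGAA and AAGATGGCG differences were -0.847 and -0.297 points, below 0 with intervals that span it. With the 20000 strongest peaks per list there were 2551 promoters (196 among the 992), a KAP1 difference of -32.5 and a median length of 31350 bp. A 2 kb window gave -27.7 for Larp7 and -9.41 for body Pol II. The start of any transcript gave -16.6 for body Pol II. Peak middles gave -58.0 for KAP1 and -1.39 (-4.58 to 1.67) for body Pol II. With no Cdk9 within 5 kb, 481 promoters gave -37.2 for Larp7, -19.5 for body Pol II and 33636 bp, and this zone overlaps the body by construction. A Pol II summit within 250 bp, chosen after seeing the data like the GC deciles, left 626 promoters. Deciles of Pol II fold gave -59.4 for KAP1 and -0.437 for body Pol II, and deciles of Hexim1 fold gave -27.4 for Larp7 and -42.7 for KAP1.

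The cause of these shifts was not tested. Depth is unknown, so a missing Cdk9 peak says that none passed the authors' threshold. No paired analysis was possible because each antibody has 1 library.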
